A study of Homo sapiens with 3 samples.

Results

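The lysyl oxidases are a family of 5 secreted copper enzymes, LOX, LOXL1, LOXL2, LOXL3 and LOXL4, and all 5 genes were represented on the arrays described here. They were found by their gene names in the array design, with every probe kept, which gave 6 probes and 24 spots per array among 27274 gene names, 34127 probes and 43118 spots that were not controls. The family was selected on signals from these same 3 arrays, so the values that follow are descriptions of the arrays and carry no test. RNA came from HepG2 cells, a human hepatocellular carcinoma line with wild-type p53, and each condition was represented by 1 array. Control cells received 0 μM etoposide and are named untreated by the labels, the low dose was 10 μM and the high dose was 100 μM, each for 30 h. Etoposide traps topoisomerase II on DNA and causes double-strand breaks, and the question of the design was how transcription differs between a dose linked to senescence and a dose linked to apoptosis. All groups share the same cell line and serum-containing medium, and with 1 array each no difference has a replicate check.

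Lysyl oxidases oxidize the side chains of lysine and hydroxylysine residues in collagens and elastin, and the aldehydes that form then react with neighboring chains to cross-link the fibers. The enzymes need a bound copper ion and a quinone cofactor made from their own residues, and they share a catalytic domain at the C terminus. LOX and LOXL1 are made with a propeptide that procollagen proteinases remove, whereas LOXL2, LOXL3 and LOXL4 carry scavenger receptor cysteine-rich domains in its place. In liver, LOX and its relatives are best known from stellate cells and fibrotic scars, and several members are raised in tumors, where LOXL2 and LOX are studied for matrix stiffening and for their link to hypoxia and SNAIL.

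The probes read different stretches of related transcripts. Their sequences were compared only with that of the LOX probe, and the LOXL2 probe was not aligned. Binding of a probe to the transcript of another member was not tested. Positions of probes are those of the array design on hg18. The LOX probe was at chr5:121433685-121433744 on the minus strand, the LOXL1 probe at chr15:72028908-72028967 on the plus strand, and one of the LOXL3 probes at chr2:74614537-74614596 on the minus strand. These 3 probes fall in sequence that encodes the end of the shared catalytic domain. They are shown here 5′ to 3′ because this is where the members resemble each other most, and capitals in the LOXL1 and LOXL3 probes mark bases identical to LOX in the best ungapped alignment of at least 20 bases.
LOX: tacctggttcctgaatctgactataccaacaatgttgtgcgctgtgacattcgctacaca
LOXL1: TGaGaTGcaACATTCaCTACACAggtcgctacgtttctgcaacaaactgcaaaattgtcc
LOXL3: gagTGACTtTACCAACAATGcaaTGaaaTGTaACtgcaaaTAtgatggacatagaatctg
The LOXL1 probe matched LOX at 18 of 23 aligned bases and then ran past the end of the LOX probe. The LOXL3 probe matched at 25 of 46 aligned bases. The other LOXL3 probe, at chr2:74613871-74613930, matched LOX at 8 of 20 bases, and the LOXL4 probe, at chr10:99997736-99997795 on the minus strand, at 8 of 21. The LOXL4 probe held the letters of the AATAAA polyadenylation motif, shown in capitals within its bases 26 to 55. Its distance from the end of the transcript was not measured.
LOXL4: ctttgcattgAATAAAtttttgccatggaa
The exon of each probe was not assigned, as no annotation of hg18 was used here.

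The signal of a probe is the intensity left after the scanner software subtracted the background, and a probe was called well above background by the call of that software in most of its spots. By this call all 5 genes were detected on at least 1 array. LOX, LOXL2, LOXL3 and LOXL4 were detected on all 3, whereas LOXL1 was detected only after etoposide and therefore entered the comparisons only through the treated arrays. For ratios, each array was set to its 75th percentile of probe signal, which was 514 in control cells, 536 with low-dose etoposide and 432 at the high dose. A signal that was not well above background was raised to the lowest detected signal of its array (19.5, 22.7 and 21.6 in the same order), so that the ratio is a bound. The spread between spots of 1 array came from the probe's own spots for LOX and LOXL2 and otherwise from the 50 repeated probes of nearest signal. The error given with a log2 ratio, called spot error here, is the spot SD of each array divided by the root of the number of spots used and combined over both arrays. It is thus a standard error of the mean for LOX and LOXL2 and an SD for probes with 1 spot. It does not cover cultures or RNA preparations.

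LOXL4 had the highest measured ratio to control at each dose, LOXL1 came out of the background at both doses, LOXL2 had lower ratios above 1, LOX was below control at both doses, and the 2 probes of LOXL3 disagreed. At the low dose 2 of 5 genes (LOXL1 and LOXL4) were more than 3-fold above control, against 1.29% of the 16714 genes tested. LOXL1 passed by a bound, and 2 spot errors below that bound reached 1.87-fold. At the high dose the same pair was past 3-fold, against 1.84% of 16977 genes, but the number was 0 without scaling, with median scaling and after normexp background correction, and 1 with quantile normalization or spike-in scaling. Between the doses, 1 of 5 genes (LOXL4) exceeded 2-fold in favor of the low dose, against 3.64% of 16791 genes, and 0 of 5 in favor of the high dose, against 3.94%. These are the contrasts on which the family was selected, and nothing is read from the shares.

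At a 2-fold limit, LOXL3 by its brighter probe joined the pair at the low dose, making 3 of 5 genes, where 3.37% of all tested genes were past the limit. At the high dose the number stayed at 2 of 5, against 6.74% of all tested genes. No member was more than 2-fold below control, either at the low dose (0 of 5, against 1.57%) or at the high dose (0 of 5, against 3.63%). The median log2 ratio of the 4 members detected on both arrays was 0.81 with low-dose etoposide and 0.78 at the high dose, and with LOXL1 at its bound the medians were 1.08 and 0.83. The median of all genes detected on both arrays was -0.03 with low-dose etoposide and 0.09 at the high dose.

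**Figure D1:**
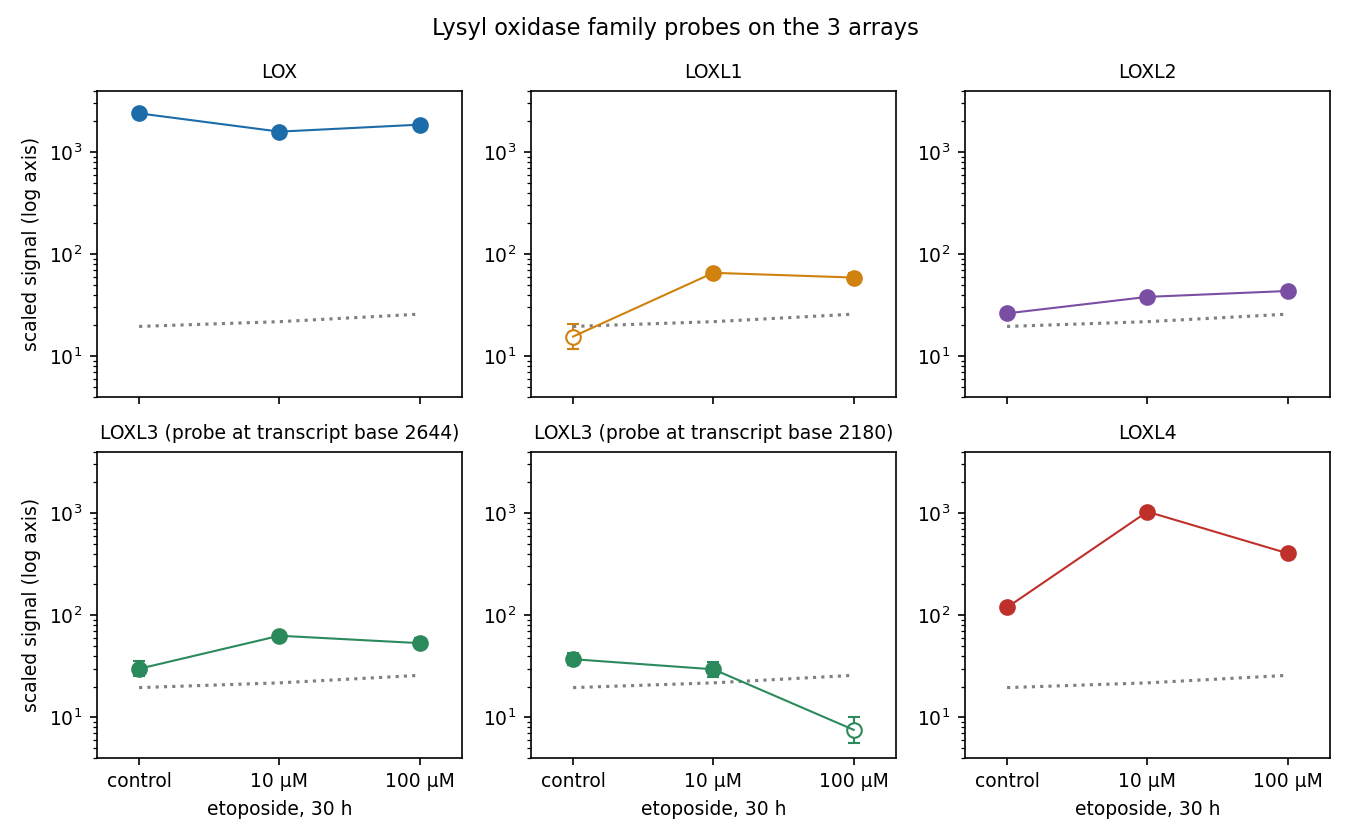
Signal of each of the 6 lysyl oxidase probes (y axis, log scale, scaled so that the 75th percentile of each array equals that of control) in control cells and after 30 h of etoposide at 10 μM or 100 μM (x axis), 1 array each. Filled points were well above background and open points were not. Bars are 1 SD between spots divided by the root of the number of spots, and the dotted line is the lowest detected signal. LOXL4 peaked at the low dose and LOX was highest in control cells. The LOXL3 probes had ratios to control on opposite sides of 1, for the probe at base 2180 within 2 spot errors of 1.

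LOXL4, which cross-links collagen and has been described in liver and other carcinomas, was read by 1 probe with 1 spot per array. Its signal was 119 in control cells, 1078 with low-dose etoposide and 340 at the high dose, and all 3 were well above background. The low dose was therefore the highest and control the lowest, with the high dose between. After scaling, LOXL4 was 8.67-fold above control at the low dose (log2 3.12 ± 0.10, spot error), and 2 spot errors either way span 7.58-fold to 9.92-fold. This ratio was the 15th from the top among 15449 genes detected on both arrays.

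At the high dose LOXL4 was 3.39-fold above control (log2 1.76 ± 0.10, spot error), with 2 spot errors spanning 2.94-fold to 3.91-fold, and it ranked 129th among 15465 genes. The ratio of the low dose to the high dose was 2.56 (log2 1.36 ± 0.07, spot error), which was the 321st among 15434 genes. All 3 differences exceeded the spot error, the only error that 1 array per condition can give. The value at the high dose depended on the scale: it was 2.85-fold without scaling, 2.77-fold with median scaling and 2.47-fold after normexp background correction, each below 3-fold. Relative to the median of all genes, LOXL4 stood at 3.15 (log2, low dose) and 1.68 (log2, high dose), and these differences are the same under any scaling by 1 factor per array.

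LOXL1, the member most closely tied to elastic fibers and a risk gene for exfoliation syndrome, was also read by 1 spot per array. Its signal was 15.5 in control cells, a signal not well above background, 68.2 with low-dose etoposide and 49.4 at the high dose. Both treated arrays thus lay above the control array, and the control value sets only an upper limit. LOXL1 was at least 3.35-fold above control at the low dose and at least 3.01-fold at the high dose. The treated arrays differed from each other by a ratio of 1.11, low over high (log2 0.15 ± 0.18, spot error), which was within the spot error. When the floor was set at the fifth percentile of detected signals, the bounds were 2.21-fold and 1.99-fold, and after normexp background correction they were 1.56-fold and 1.67-fold. The bound at the high dose was 2.53-fold without scaling, 2.46-fold with median scaling, 2.36-fold with quantile normalization and 2.67-fold with spike-in scaling.

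LOX, the founding member and the enzyme that cross-links fibrillar collagen, was read by 10 spots of 1 probe on each array. In control cells the spots ran from 2240 to 2551 with a median of 2388, at the low dose from 1592 to 1719 with a median of 1645, and at the high dose from 1511 to 1624 with a median of 1556. The control spots thus lay above every spot of the treated arrays. After scaling, the mean was 2389 in control cells, 1581 with low-dose etoposide and 1851 at the high dose, and the spots of the 3 arrays did not overlap. The ratio to control was 0.662 at the low dose (log2 -0.60 ± 0.02, spot error) and 0.775 at the high dose (log2 -0.37 ± 0.02). The SD between LOX spots was 0.05, 0.04 and 0.03 on the log2 scale in control cells and with the low and high doses. With spreads this small, a modest difference between arrays is enough to separate the spots. How many of the 999 probes spotted 10 times also separated was not counted. Among genes detected on both arrays, 5.30% had a lower ratio to control than LOX with 10 μM etoposide, and 17.7% with 100 μM.

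LOX lay below control at each dose under all alternatives computed, with log2 ratios from -0.62 to -0.53 at the low dose and from -0.66 to -0.30 at the high dose. The order of the treated arrays was less settled, and before scaling their spots overlapped. The ratio of the low dose to the high dose was 0.854 (log2 -0.23 ± 0.02), but its log2 value was 0.08 without scaling and 0.04 with median scaling. LOX was the only family gene, as represented by its brightest probe, whose ratio was below 1 at either dose.

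LOXL2, which has been linked to SNAIL and to collagen IV cross-linking, was read by 10 dim spots per array of a probe on the minus strand of chromosome 8 (start 23210731, end 23210790). In control cells they ran from 11.4 to 36.9 with a median of 29.4, and 7 of 10 were well above background. At the low dose the software marked 2 spots as outliers, and the remaining 8 ran from 24.7 to 51.1 with a median of 41.1. At the high dose the spots ran from 18.2 to 48.1 with a median of 40.6, and 9 of 10 were well above background. The spots of all 3 arrays overlapped.

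The mean LOXL2 signal was 1.45-fold above control at the low dose (log2 0.54 ± 0.19, spot error) and 1.66-fold at the high dose (log2 0.73 ± 0.21). The SD between LOXL2 spots was 0.50 in control cells, 0.31 with the low dose and 0.44 with the high dose on the log2 scale, so neither ratio exceeded 2 SDs between single control spots. The ratios of the means exceeded 2 standard errors, with lower ends of 1.11-fold and 1.24-fold, but the log2 ratio at the low dose was 0.17 after normexp background correction. The doses differed by a ratio of 0.876 (log2 -0.19 ± 0.18), and this log2 value was above 0 without scaling, with median scaling, with quantile normalization and with spike-in scaling (0.03 to 0.14). Thus LOXL2 had no settled order between the doses.

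**Figure D2:**
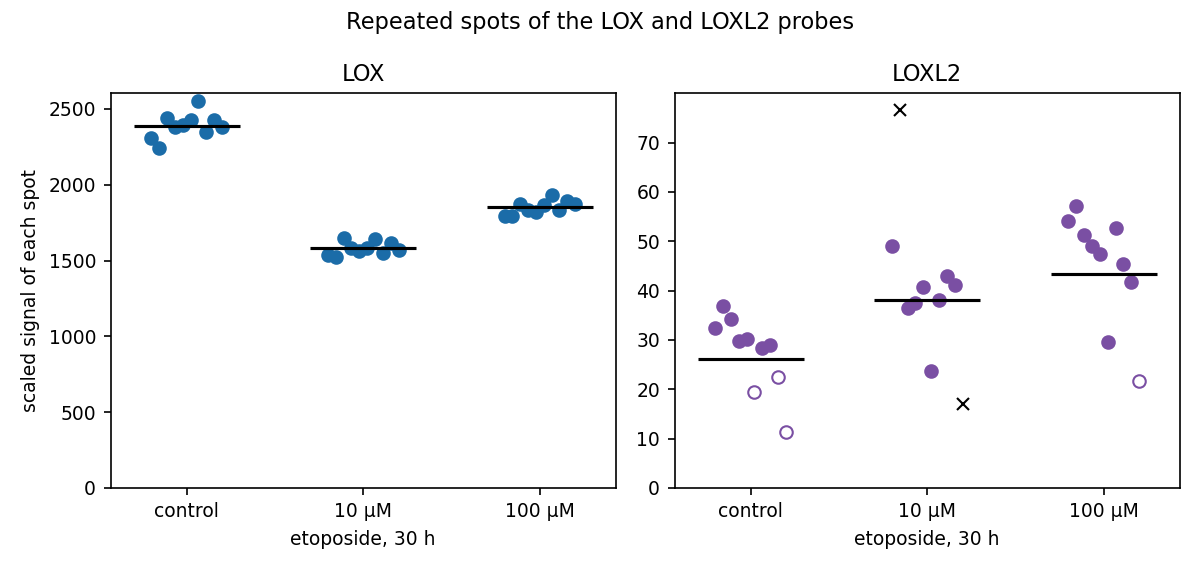
Scaled signal of every spot (y axis, linear) of the LOX probe, left, and the LOXL2 probe, right, on the control, 10 μM and 100 μM arrays (x axis). Lines are geometric means, open circles are spots not well above background and crosses are spots the scanner software marked as outliers and that were left out; LOX spots separate between arrays and LOXL2 spots overlap.

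LOXL3, a family member with roles in palate, cartilage and spine development, had 2 probes, and these disagreed. The probe at base 2644 of the transcript had signals of 29.8 in control cells, 65.6 with low-dose etoposide and 44.7 at the high dose, all well above background. It stood for the gene, as the brighter of the pair, and gave 2.11-fold over control at the low dose (log2 1.08 ± 0.26, spot error) and 1.78-fold at the high dose (log2 0.83 ± 0.29). Between the doses the ratio, low over high, was 1.18 (log2 0.24 ± 0.20). After normexp background correction this probe was 1.35-fold above control at the low dose, which is not past 2-fold, and its log2 ratio between the doses was -0.11.

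The probe at base 2180, whose sequence is given above, gave a signal of 37.0 in control cells, against 30.8 with the low dose and 6.33 with the high dose. The last of these was not well above background. Its ratio to control was 0.796 at the low dose (log2 -0.33 ± 0.32), about 1 spot error below 1. At the high dose the signal was raised to the floor, and the bound was 1.44-fold lower than control (log2 -0.53 ± 0.46, spot error). The range of 2 spot errors around this bound, 0.365 to 1.32, included 1. With the floor at the fifth percentile and after normexp background correction, no ratio resulted for this probe at the high dose. The ratios of the probes thus lay on opposite sides of 1, for this probe within 2 spot errors of 1, and the change of LOXL3 is uncertain. The array design lists 3 Ensembl transcripts for each probe, of which 1 is common to both, so the probes need not read the same transcripts.

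**Figure D3:**
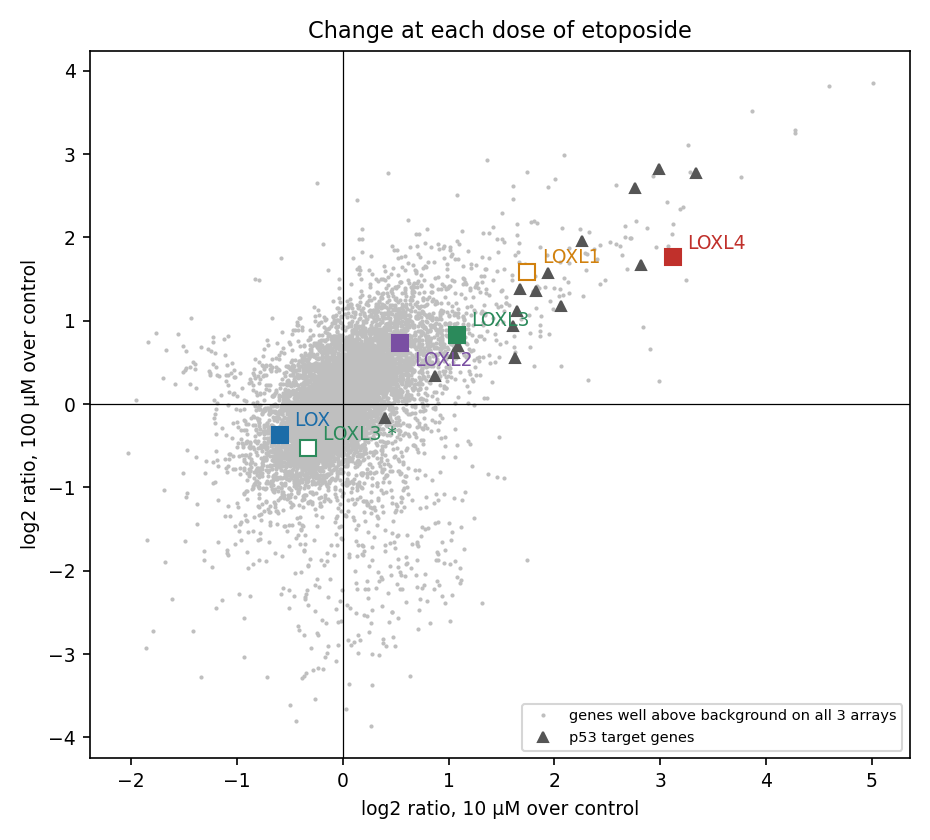
Log2 ratio to control at 10 μM (x axis) against that at 100 μM (y axis) for genes well above background on all 3 arrays (grey), the p53 target genes (triangles) and the lysyl oxidase probes (squares; open where a bound, asterisk for the second LOXL3 probe). Both axes share the control array, so the points lean along the diagonal for that reason too; LOXL4 lies at 3.12 and 1.76 and LOX at -0.60 and -0.37.

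The genes nearest to LOXL4 were ranked by the distance between their pair of log2 ratios to control and those of LOXL4, among 12045 genes detected on all 3 arrays. The 5 nearest were PRODH (distance 0.14), IGFBP2 (0.20), EVL (0.28), CCDC74B (0.30) and MDM2 (0.31). PRODH, the first enzyme of proline breakdown, had signals of 125 in control cells, 1098 with low-dose etoposide and 390 at the high dose, or 8.42-fold and 3.71-fold over control. IGFBP2, which binds insulin-like growth factors, had 26.4, 214 and 82.0, or 7.77-fold and 3.70-fold. These 5 genes shared with LOXL4 a peak at the low dose, which the measure of likeness fixes.

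EVL, an actin regulator of the Ena/VASP family, was 8.66-fold above control at the low dose and 4.11-fold at the high dose. CCDC74B, a coiled-coil protein gene, was 9.48-fold and 2.81-fold above control. MDM2, the ubiquitin ligase that restrains p53 and is itself a p53 target, was 7.04-fold and 3.19-fold, with a ratio of 2.21 between the doses by its brightest probe. The 2 other MDM2 probes gave 3.57-fold and 4.88-fold at the low dose.

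CDKN1A, the p53 target that inhibits cyclin-dependent kinases, had signals of 170 in control cells, 1407 with low-dose etoposide and 1010 at the high dose. It was 7.94-fold and 7.07-fold above control, and the doses differed by a ratio of 1.12, in contrast to 2.56 for LOXL4. In a list of 16 p53 target genes, all detected, 14 were more than 2-fold above control at the low dose, 10 were so at the high dose, and 2 (MDM2 and PPM1D) exceeded 2-fold between the doses by their brightest probes. The shares of all tested genes were 3.37%, 6.74% and 3.64% in the same order. The 2 other MDM2 probes gave ratios of 1.62 and 1.76 between the doses, and 1 gene of the list was past 2-fold with the percentile over all spots. The highest ratios at the low dose were those of BTG2 (10.1-fold), CDKN1A, MDM2 and TP53INP1 (6.77-fold), and PHLDA3 was 3.89-fold above control at the high dose. The median log2 ratio of the list was 1.75 with low-dose etoposide and 1.27 at the high dose.

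The promoters of LOXL4 and LOX are shown because these members differed most in their ratios to control. They are the 250 bases upstream of the RefSeq start on GRCh38.p14, read 5′ to 3′ on the minus strand. For LOXL4, at chr10:98268195-98268444, capitals mark the GC box GGGCGG on either strand.
LOXL4: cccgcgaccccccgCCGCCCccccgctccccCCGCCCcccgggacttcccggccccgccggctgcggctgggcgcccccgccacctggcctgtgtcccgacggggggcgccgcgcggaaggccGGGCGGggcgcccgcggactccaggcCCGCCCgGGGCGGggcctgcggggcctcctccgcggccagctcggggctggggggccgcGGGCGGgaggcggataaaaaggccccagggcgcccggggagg
For LOX, at chr5:122078260-122078509, capitals mark the hypoxia response core ACGTG on either strand.
LOX: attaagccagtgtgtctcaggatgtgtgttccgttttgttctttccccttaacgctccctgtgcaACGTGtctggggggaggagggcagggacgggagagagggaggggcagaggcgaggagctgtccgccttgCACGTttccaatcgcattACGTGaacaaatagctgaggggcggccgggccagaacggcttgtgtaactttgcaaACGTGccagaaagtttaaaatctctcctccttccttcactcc
The LOXL4 stretch had 6 GC boxes and 86.4% G and C, and the LOX stretch had 4 hypoxia cores and 55.2% G and C. Over windows of 300 bases that include 50 bases after the start, 99.76% of 35116 RefSeq windows had a lower G and C content than that of LOXL4 (85.3%, against a median of 58.7%). At least 1 GC box was present in 45.0% of these windows, and at least 1 ACGTG in 21.4%. A different motif is marked in each stretch, so the marks are not a contrast between the genes. The LOX stretch also held 1 GC box, left unmarked, and the LOXL4 window held 0 ACGTG. The LOX stretch comes from the first of 3 LOX windows, and windows 2 and 3 held 1 ACGTG each and 0 GC boxes. One LOXL3 window held 2 GC boxes.

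The p53 half-site consensus was found in 6.63% of the windows on either strand and had no match in the LOXL4 window or in any of the 3 LOX windows, and the LOXL1 and LOXL3 windows held none either. The TATAAA motif (11.5% of windows) and the SMAD element GTCTAGAC (0.202%) also had no match in these windows. LOXL2 was not searched. A match is a description of letters, and its absence says only that the letters are not in these windows.

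The genes next to each member on its chromosome, chosen after the values were seen, gave a view of the surrounding loci. Of 20 such protein-coding genes, 2 on either side of each member by RefSeq order, 15 were detected on all 3 arrays. At the low dose 1 of the 15 was past 2-fold from control, which was DOK1 beside LOXL3 (2.09-fold), and at the high dose there was none. Between the doses 2 were past 2-fold, DOK1 (2.08, low over high) and PYROXD2 beside LOXL4 (0.487). The neighbors of LOXL4 gave 1.18-fold for R3HCC1L, 0.915-fold for PYROXD2 and 1.04-fold for HPS1 at the low dose, with CRTAC1 not well above background. With the high dose they gave 1.21-fold, 1.88-fold and 1.48-fold. None of these 3 genes peaked at the low dose after scaling as LOXL4 did. Before scaling R3HCC1L was highest there, with signals of 160 (control), 197 (low dose) and 163 (high dose), so its order depends on the scaling.

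Most genes of the family's substrates were not detected or stayed within 2-fold of control. Among 12 genes of fibrillar collagens and elastin, 6 were detected, and none of the 6 was past 2-fold in any of the 3 comparisons by its brightest probe. For this and the lists that follow, the shares of all tested genes past 2-fold were 3.37% higher and 1.57% lower at the low dose. They were 6.74% and 3.63% at the high dose, and 3.64% and 3.94% between the doses. COL1A1, COL1A2 and COL3A1, the major collagens of connective tissue, were not well above background on any array. COL2A1, the collagen of cartilage, had signals of 3582 (control), 4809 (low dose) and 3122 (high dose), and ELN, which encodes elastin, had 43.7, 43.5 and 36.0. COL11A2 was the member whose probes disagreed: its brightest gave 1.08-fold at the high dose and its 2 others gave more than 3-fold, up to 4.08-fold.

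Of 19 basement membrane and other collagens, 8 were detected. COL7A1, which forms the anchoring fibrils of skin, had signals of 366 in control cells, 1197 with low-dose etoposide and 1378 at the high dose, and was 3.13-fold and 4.47-fold above control. COL6A1 and COL10A1 were each 2.20-fold above control at the high dose. This made 3 of 8 past 2-fold there, against 6.74% of all tested genes, and 1 of 8 at the low dose, against 3.37%. Without scaling, with median or spike-in scaling and after normexp, 1 of 8 was past 2-fold at the high dose too. COL8A2 went the other way, from 98.6 in control cells to signals not well above background, so that it was at least 4.54-fold lower with the low dose and at least 3.56-fold lower with the high one. The medians of the list, COL8A2 left out, were 0.47 and 0.83 on the log2 scale.

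Genes of proteins that process or bind lysyl oxidases stayed within 2-fold of control at the low dose. Of 23 listed genes 13 were detected, and 0 were past 2-fold there. BMP1, the proteinase that removes the LOX propeptide, had signals of 99.1, 183 and 153, or 1.77-fold and 1.83-fold over control. FN1, which encodes fibronectin and binds LOX, was 1.12-fold and 1.31-fold. MFAP4, a microfibril protein that binds elastin and collagen, was at 0.503 (low dose) and 0.427 (high dose) of control. MFAP5 was at 0.497 in the low dose relative to the high dose, but without scaling no gene of the list was past 2-fold between the doses.

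Collagen-modifying enzymes and chaperones were detected for 16 of 18 genes. P4HA2, an alpha subunit of prolyl 4-hydroxylase, was 2.28-fold above control at the low dose and 1.86-fold at the high dose. By the brightest probes it was the only one of the 16 past 2-fold. Its second probe gave 2.18-fold and 1.89-fold. The related P4HA1 went the other way, at 0.550 and 0.618 of control. PLOD1, PLOD2 and PLOD3, the lysyl hydroxylases that prepare sites for lysyl oxidases, lay between 0.853-fold and 1.33-fold of control at both doses.

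Copper supply, on which all 5 enzymes depend, was represented by 17 genes that also included other copper amine oxidases, and 14 were detected. None of the 14 was past 2-fold in any of the 3 comparisons by its brightest probe. At the high dose, 1 was more than 2-fold higher with the percentile over all spots, and 1 was more than 2-fold lower without scaling and with median scaling. CCS was 1.34-fold (low dose) and 1.97-fold (high dose) above control. SLC31A1, the copper importer, was at 0.674 (low dose) and 0.736 (high dose) of control. ATP7A, which loads copper onto lysyl oxidases in the secretory pathway, was at 0.691 and 0.966. Its other probes ran from 0.761 to 0.924 at the low dose and from 0.892 to 1.49 at the high dose. The list medians were -0.09 and -0.04 on the log2 scale, beside -0.03 and 0.09 for all genes.

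Known regulators of lysyl oxidase genes in TGF beta, hypoxia and SNAIL signaling were detected for 16 of 21 genes, and 0 were past 2-fold at the low dose. SNAI1, the transcription factor SNAIL, was at 0.844 (low dose) and 0.686 (high dose) of control. EPAS1, which encodes HIF-2 alpha, was 1.89-fold and 1.66-fold above control, and HIF1A was 1.03-fold and 1.05-fold. CDH1, which encodes E-cadherin, was 2.18-fold above control at the high dose and was the only gene of the list past 2-fold there, but it was not past 2-fold under the same 4 alternatives. Without scaling and with median scaling, 1 gene of the list was more than 2-fold lower there. Expression of SNAI2, ZEB2 and VIM was not well above background.

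**Figure D4:**
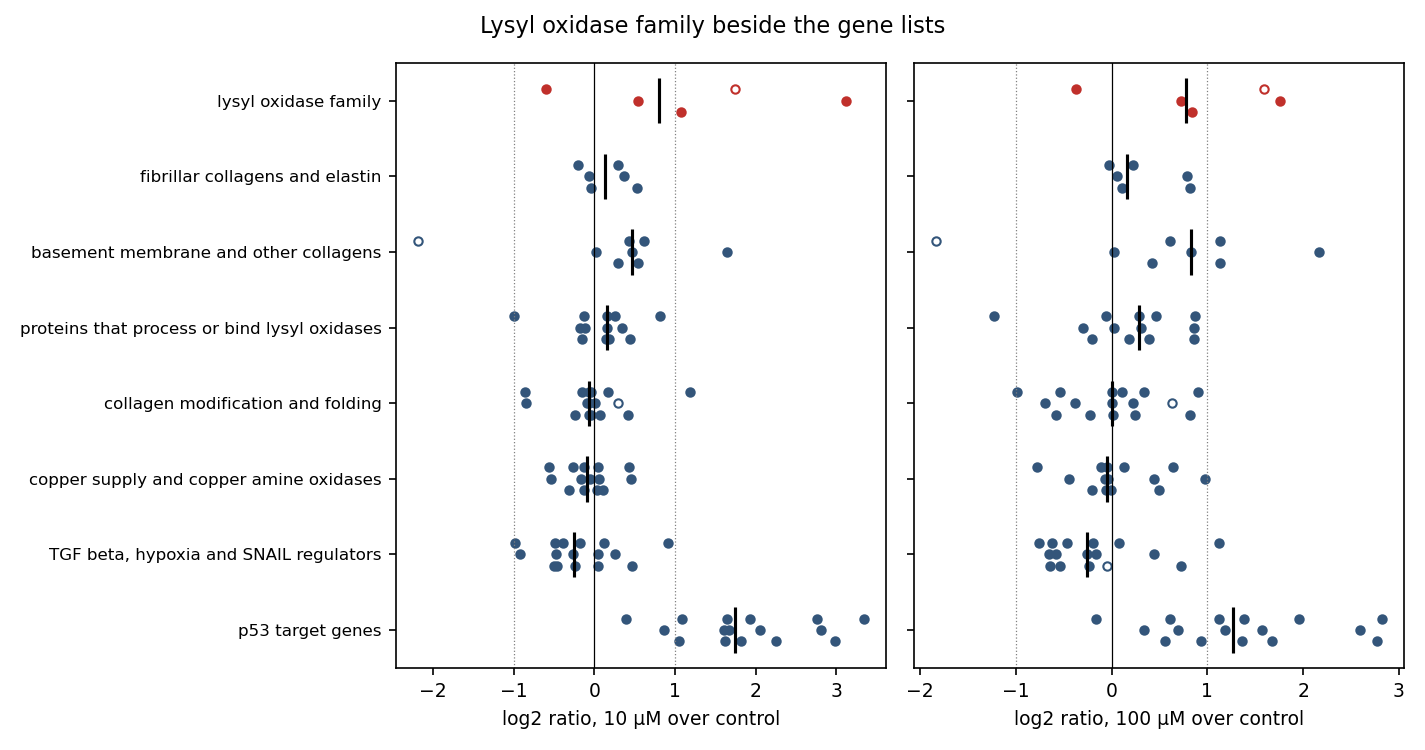
Log2 ratio to control at 10 μM, left, and 100 μM, right (x axes), of each gene of the lysyl oxidase family (red) and of 7 gene lists (blue, y axis), by its brightest probe. Open points are bounds, black bars are medians of genes detected on both arrays and dotted lines mark 2-fold; the family spans -0.60 to 3.12 at the low dose, and the p53 target list has the highest medians.

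The cells were checked against markers of other cell types, since lysyl oxidases are made mainly by mesenchymal cells in liver. All 10 hepatocyte markers were well above background on the 3 arrays, with AFP and APOA1 the brightest in control cells. Of 12 fibroblast and stellate cell markers, 9 were not well above background on any array, among them the defining genes COL1A1, COL1A2, COL3A1, DCN, LUM and THY1. ACTA2, which encodes smooth muscle actin, was higher at both doses, as LOXL4 and LOXL1 were. Its signals were 1908, 8750 and 5861, or 4.40-fold and 3.65-fold over control.

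DES was detected on all 3 arrays (260, 274 and 258), and PDGFRB was at 95.6, 67.0 and, at the high dose, not well above background. The summed scaled signal of the fibroblast and stellate list was 2328, 8798 and 7404, of which most was ACTA2. Endothelial markers were detected on all 3 arrays for 2 of 6 genes (PECAM1 and CDH5, summed list signal 544, 363 and 439), and macrophage markers for 3 of 6 (CD68, CD14 and PTPRC, summed list signal 974, 1530 and 3118). CD14 was 2.18-fold (low dose) and 4.22-fold (high dose) above control and CD68 1.32-fold and 2.81-fold, whereas PTPRC was at 0.490 of control at the low dose and 1.33-fold at the high dose. The part of these genes in the family's values was not tested. In bulk RNA, fewer cells expressing a gene and less RNA per cell cannot be told apart.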

How the data were processed

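Cy3-labeled RNA of HepG2 cells was read on 1-color Agilent 4 × 44 K arrays, 1 per condition, all on 1 slide. The authors deposited the output of their scanner software, Feature Extraction 10.7.3.1, in which the intensity of each spot is corrected for background, and a series table whose intensity values equal it (0 spots differed, relative tolerance 1e-05). No scaling between arrays had been applied. Conditions came from the labels.

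From the deposited intensity, log2 values were averaged over the spots of a probe, without spots called outliers, and the 75th percentile over the probes of each array was subtracted. A gene was represented by its brightest probe. No test is possible with 1 array per condition; the number of arrays limits the precision. The methods name no filter on dim probes.

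The members and gene lists were chosen with earlier results of these data known. Named genes were all members, list genes past 2-fold and well above background on both arrays (up to 4 highest and 4 lowest per comparison), CDKN1A, MDM2, the 5 genes most like LOXL4 and the brightest or detected markers. Other list genes and the neighbors were named after their values were seen. Promoters came from RefSeq on GRCh38.p14, and no position was converted between builds. Steps were tested on simulated data. Alternatives changed the scaling, background correction (normexp, offset 50), outlier spots, floor, filter, probe rule, table and fold limits. Python 3.11.15, numpy 2.4.6, pandas 2.3.3, matplotlib 3.10.9, R 4.3.3 and limma 3.58.1 were used.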

Additional observations from a re-analysis of the deposited data

How the results depend on the processing

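No paired analysis was possible because only 1 array represents each condition. LOXL4 kept its direction in all 33 alternative values, from 1.24 to 3.18 on the log2 scale. These are not independent checks. The higher floor, the absence of a filter and the series table could not change LOXL4, and they returned the main values. Scaling by 1 factor per array shifts all genes alike. The LOXL4 ratio at the low dose moved beyond the spot error after normexp correction (2.55). Its ratio at the high dose was 1.51 without scaling, 1.47 with median scaling, 1.59 with spike-in scaling and 1.31 after normexp, and the ratio between doses was 1.67, 1.62, 1.58 and 1.24 in the same order, and 1.28 with the percentile over all spots. Members past 3-fold at the low dose numbered 1 after normexp, with the floor at the fifth percentile, with only probes detected on all arrays and at a 4-fold limit, in place of 2. At the high dose there were 0 without scaling, with median scaling, after normexp and at a 4-fold limit, and 1 with quantile normalization, spike-in scaling, the higher floor and only probes detected on all arrays. The mean over all probes made 2 members past 2-fold between doses in place of 1, since LOXL3 joined LOXL4. Of 162 values of the other family probes, 117 moved by less than the spot error and 9 changed sign, none of them past a fold limit. Of 546 list counts, 495 were equal to the main count or within 1.5 times of it. Most main list counts were 0, and a 0 that stayed 0 is included, so this number says little about stability. Without scaling, the median of all genes at the high dose went from 0.09 to -0.16, and genes past 3-fold from 313 higher and 278 lower to 183 and 377; between doses, 611 and 661 became 1002 and 286. With no filter on dim probes, genes past 3-fold at the low dose numbered 527 higher and 328 lower in place of 215 and 60. Causes were not tested. LOXL1 and the LOXL2 and LOXL3 probes lay near background, which limits their ratios.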
